A study of Homo sapiens with 30 samples.

Results

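The report concerns 6 of the 30 RNA-sequencing libraries in the series, chosen by the treatment named in their labels. In 3 libraries, SW1783 cells had received an ethanol extract of Soshiho-tang at 500 µg/mL. In the other 3 they had received an ethanol extract of Yijin-tang at 500 µg/mL. All 6 were taken after 24 h and belong to a single library set, so the formulas were set against each other at an equal concentration by weight. SW1783 is an established human astrocytoma line, grown here in L-15 medium with serum. The 12 libraries of both extracts at 100 and 20 µg/mL, from the same set, and 3 libraries of DMSO vehicle, from another set, entered the fit and give context. A set here is the first part of the library name. The titles of all 21 libraries of the fit name batch E, and what the sets stand for is not stated. Whether the 3 libraries of a group stem from separately grown cells is not stated, so p-values measure only how these libraries spread, which may be technical. The labels also do not give the herbs in each formula or the makeup of the extracts.

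Soshiho-tang and Yijin-tang are multi-herb formulas of East Asian medicine. Standard formularies build Soshiho-tang on Bupleurum root with Scutellaria and ginseng, and Yijin-tang on Pinellia tuber with citrus peel and poria. Both formulas hold licorice, ginger and Pinellia. A cultured cell answers plant extracts through several well-known sensor systems. Blocked amino acid supply, faulty folding or mitochondrial stress raise translation of the transcription factor ATF4, which drives genes of amino acid uptake, tRNA charging and stress signalling. Electrophiles free NRF2, which drives antioxidant and iron-handling genes. Ligands such as flavonoids act on the aryl hydrocarbon receptor (AhR), which drives the cytochrome P450 family 1 genes.

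The 6 libraries held between 25.0 and 33.1 M gene counts, and the 30 libraries between 23.9 and 33.1 M (M, counts in units of 1e6). Mitochondrially encoded transcripts took 7.79%, 7.34% and 6.93% of counts with Soshiho-tang, against 6.70%, 7.35% and 10.6% with Yijin-tang. Replicate 3 of Yijin-tang thus stood above the other 5. Over all genes, mitochondrially encoded ones included, its counts stood apart too. Their chi-square against replicates 1 and 2 of Yijin-tang was 39.5 and 23.5 per degree of freedom. Other replicate pairs at 500 µg/mL gave 3.49 to 6.83. These chi-square values are thus not independent of the mitochondrial share. The difference in this share was -0.863 percentage points (exact permutation test, two-sided, p = 0.8, where 3 against 3 libraries cannot give less than 0.1). The astrocyte markers GFAP and S100B were at most 0.212 and 0.241 CPM (counts per 1e6 counts of the library) in all 21 libraries of the fit, and AQP4 and FABP7 were at 0 in all 6. The mesenchymal and glial filament gene VIM lay between 4264 and 4570 CPM with Soshiho-tang and between 4061 and 4600 CPM with Yijin-tang, so the libraries overlapped. The glial and glioma list was thus split, with 8 of its 15 genes under 1 CPM in all 6 libraries. Present before scaling were CD44 (2270 to 2910 CPM), SOX9 (54.4 to 64.0 CPM) and SLC1A3 (18.9 to 25.8 CPM), with NES, NFIA and NFIB lower. The label of an astrocytoma line therefore rests on the stated source and not on GFAP, S100B, AQP4 or FABP7. Keratin and other epithelial markers summed to 688 to 756 CPM with Soshiho-tang, against 1010 to 1230 CPM with Yijin-tang. Fibroblast and pericyte markers summed to 879 to 943 CPM with Soshiho-tang, against 960 to 1030 CPM with Yijin-tang, and endothelial markers to 41.3 to 43.0 CPM, against 35.3 to 37.7 CPM with Yijin-tang. Glial, neuronal and leukocyte sums overlapped. These sums are before scaling, and their part in the results was not tested. The labels name SW1783 alone, so the sums describe transcripts and not counted cells. Expression is relative here, so fewer cells of a kind and less RNA per cell cannot be told apart.

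At 500 µg/mL the extracts left the cells with widely different transcriptomes. Of 16872 genes tested with edgeR's quasi-likelihood test, 4239 or 25.1% differed at a Benjamini-Hochberg adjusted p under 0.05, the threshold for every call below. Soshiho-tang libraries were higher in 2093 (12.4%) and lower in 2146 (12.7%). All counts of called list members below are to be read against these shares. The difference reached 2-fold in 391 genes (2.32%), 174 of them higher and 217 lower with Soshiho-tang. Libraries of the groups did not overlap in 6575 genes (39.0%), and 4114 of the called genes were among these. Without replicate 3 of Yijin-tang 3686 genes were called, of which 3342 were among the 4239. Protein-coding genes made up 3890 of the calls, and 127 called genes had no symbol. The median log2 difference over all genes tested was -0.0013. All log2 differences are Soshiho-tang minus Yijin-tang, with a standard error, and all levels are CPM after TMM scaling unless stated.

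**Figure D1:**
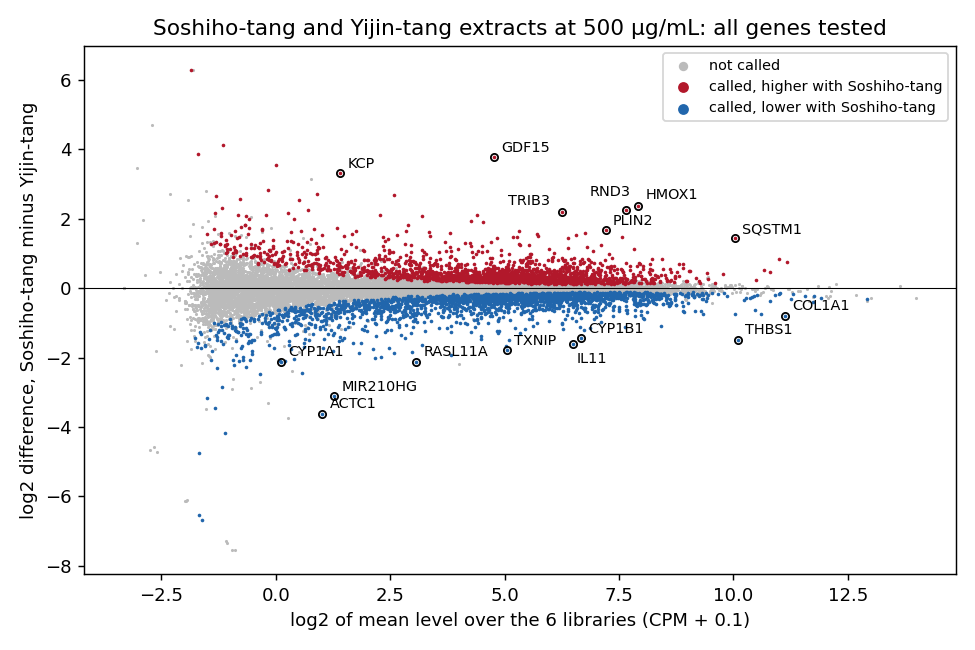
Log2 difference between the extracts at 500 µg/mL (vertical axis) against the log2 of the mean level over the 6 libraries (horizontal axis, CPM plus 0.1), 1 point per gene tested. Red and blue points are the 2093 genes called higher and the 2146 called lower with Soshiho-tang; grey points were not called, and circled genes are named in the text.

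Stress genes downstream of ATF4 were higher with Soshiho-tang, and their list had the highest median of the 51 lists. Lists were chosen with earlier results of these data known, so this rank describes and does not test. GDF15, a secreted stress cytokine of the TGF-β family on chromosome 19 (19:18374731-18389176, GRCh38, GENCODE 29), was at 51.3, 56.5 and 44.3 CPM with Soshiho-tang. With Yijin-tang it was at 3.47, 4.05 and 3.67 CPM. The log2 difference of 3.77 ± 0.12 (adjusted p = 3.3e-17), or 13.6-fold, was the largest among the protein-coding genes named by rank. TRIB3 (20:362835-397559), a pseudokinase that feeds back on ATF4 and AKT, had 126, 136 and 114 CPM with Soshiho-tang against 28.7, 28.8 and 24.3 CPM with Yijin-tang (2.20 ± 0.08, adjusted p = 1.5e-16). NUPR1, a small chromatin-associated stress protein, had 37.7, 38.1 and 33.2 CPM against 9.28, 9.69 and 9.97 CPM with Yijin-tang (1.92 ± 0.10). ADM2, a peptide hormone of the adrenomedullin family, had 14.1, 16.7 and 13.5 CPM against 4.00, 2.94 and 3.42 CPM with Yijin-tang (2.08 ± 0.12). In each of these the lowest Soshiho-tang library was above the highest Yijin-tang library by a wide margin. For genes named by rank, such as GDF15, the lack of overlap was a condition of naming.

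Of 23 measured members of the ATF4 list, 17 were higher and 2 lower with Soshiho-tang, set against 12.4% and 12.7% of all genes. The list's median log2 difference was 1.03, beside -0.0013 over all genes. DDIT4, an inhibitor of mTORC1 that also answers hypoxia, and VLDLR were the 2 lower members. DDIT4 was at 55.6, 68.5 and 68.2 CPM with Soshiho-tang against 97.4, 98.3 and 78.0 CPM with Yijin-tang (-0.51 ± 0.09). The ATF4 transcript itself had 327, 323 and 282 CPM with Soshiho-tang, against 138, 144 and 149 CPM with Yijin-tang (1.12 ± 0.07). At 20 and 100 µg/mL the list's median log2 difference was -0.10 and -0.02.

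Transcripts of amino acid supply genes moved the same way, while amino acids themselves were not measured. In the list of amino acid transporters and synthesis enzymes, 13 of 16 members were higher and 1 was lower, with a median of 0.33. PSAT1, an enzyme of serine synthesis, had 166, 173 and 159 CPM with Soshiho-tang against 86.5, 84.0 and 68.8 CPM with Yijin-tang (1.06 ± 0.08, adjusted p = 2.3e-10). PHGDH, the entry enzyme of the same pathway, and the neutral amino acid carrier SLC1A4 differed by 0.77 ± 0.07 and 0.75 ± 0.06. Among 20 cytosolic tRNA synthetases, which load tRNAs with their amino acids, 12 were higher and 1 was lower, with a median of 0.41. GARS1, for glycine, led with 392, 395 and 364 CPM against 203, 215 and 232 CPM with Yijin-tang (0.82 ± 0.05). Synthetases for glutamine, arginine, lysine, histidine, phenylalanine and valine did not pass the test, with log2 differences between -0.08 and 0.06.

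The promoters of genes in these lists were read for TGATGNAA, the composite site known to bind ATF4 with C/EBP family partners, on both strands. RefSeq windows (GRCh38.p14) run from 250 bases before to 50 bases after the gene's first listed start. The site was in 4 of 21 windows of the ATF4 list (19.0%), in 6 of 16 of the tRNA synthetases (37.5%) and in 1 of 11 of the amino acid list (9.09%). It was in 1.69% of 11693 windows of tested genes and in 3.67% of all 27305 windows. The 6 synthetases were AARS1, CARS1, IARS1, MARS1, NARS1 and TARS1, and all 6 were called higher with Soshiho-tang. The 4 on the ATF4 list, CHAC1, ASNS, ATF3 and SLC3A2, were called higher too. Shown are the windows of the 2 members of the ATF4 list and the 1 synthetase that differed most among those with the site, written 5′ to 3′ on the gene's strand, with the site in capitals. They are CHAC1 (chr15:40953221-40953520, plus strand), ASNS (chr7:97872359-97872658, minus strand) and AARS1 (chr16:70289457-70289756, minus strand). The site begins at -209, -68 and -187 relative to the start in the 3 windows, and a match describes letters only.
CHAC1: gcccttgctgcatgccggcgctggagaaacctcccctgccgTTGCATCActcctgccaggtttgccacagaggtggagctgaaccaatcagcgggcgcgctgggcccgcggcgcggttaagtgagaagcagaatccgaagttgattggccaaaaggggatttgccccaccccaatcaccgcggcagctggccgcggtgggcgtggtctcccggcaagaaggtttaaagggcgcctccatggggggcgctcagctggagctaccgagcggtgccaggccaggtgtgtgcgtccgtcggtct
ASNS: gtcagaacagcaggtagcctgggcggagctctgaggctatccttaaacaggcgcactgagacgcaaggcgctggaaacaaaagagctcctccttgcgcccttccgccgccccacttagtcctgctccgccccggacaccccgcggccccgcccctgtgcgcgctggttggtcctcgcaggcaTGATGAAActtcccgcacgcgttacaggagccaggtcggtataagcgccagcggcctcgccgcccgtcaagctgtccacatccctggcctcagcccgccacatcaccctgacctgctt
AARS1: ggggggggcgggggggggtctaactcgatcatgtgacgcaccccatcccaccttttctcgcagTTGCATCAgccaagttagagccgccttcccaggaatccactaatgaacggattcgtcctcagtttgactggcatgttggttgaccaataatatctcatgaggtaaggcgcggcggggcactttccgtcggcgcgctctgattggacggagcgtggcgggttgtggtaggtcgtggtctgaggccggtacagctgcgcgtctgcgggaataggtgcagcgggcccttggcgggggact

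CHAC1, which breaks down glutathione, had 20.3, 22.8 and 19.1 CPM with Soshiho-tang against 6.71, 6.87 and 7.23 CPM with Yijin-tang (1.58 ± 0.10, adjusted p = 7.2e-12). ASNS, asparagine synthetase, had 155, 162 and 145 CPM against 68.3, 71.0 and 65.4 CPM with Yijin-tang (1.17 ± 0.05). AARS1, for alanine, had 359, 361 and 351 CPM against 224, 221 and 211 CPM with Yijin-tang (0.71 ± 0.05). None of the 3 genes had overlapping libraries.

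Genes of endoplasmic reticulum folding had no shared direction. Of 22 chaperone and folding genes, 4 were higher and 3 lower, beside 12.4% and 12.7% of all genes, with a median of -0.04. The higher ones were HERPUD1 (0.83), the sensor kinase ERN1 (0.43), DNAJB9 (0.39) and EDEM1 (0.22), while the chaperone HSPA5 stood at -0.04 and was not called. EDEM1 lost its call in 6 of the alternative fits, and its libraries overlapped. Without replicate 3 of Soshiho-tang 3 genes of the list were higher and 1 was lower.

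**Figure D2:**
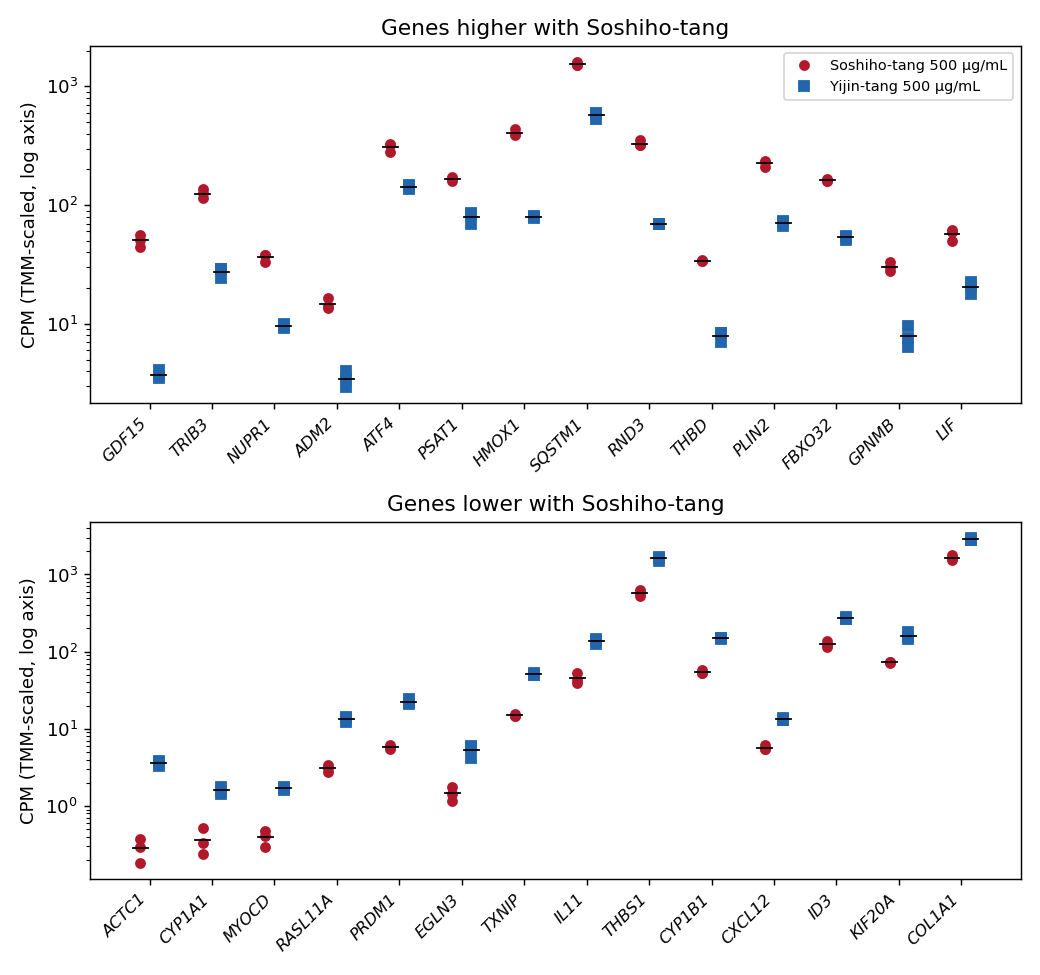
Level of 28 named genes in each of the 6 libraries at 500 µg/mL (CPM, log axis), Soshiho-tang as red circles left of Yijin-tang as blue squares, with black bars at the group means. Every gene shown keeps its groups apart, the upper panel with Soshiho-tang above and the lower panel with Soshiho-tang below. Genes named by rank had to meet this condition to be named.

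Many NRF2 and heme genes were also higher with Soshiho-tang. HMOX1 (22:35380361-35394214), heme oxygenase 1, which splits heme into biliverdin, carbon monoxide and iron, had 398, 434 and 386 CPM with Soshiho-tang, against 79.9, 80.6 and 77.5 CPM with Yijin-tang, a 5.12-fold difference. SQSTM1 (5:179806398-179838078), the autophagy receptor p62, is both an NRF2 target and an activator of NRF2. It had 1505, 1601 and 1511 CPM with Soshiho-tang against 596, 586 and 532 CPM with Yijin-tang (1.43 ± 0.05, adjusted p = 5.8e-16). OSGIN1, a growth-restraining stress gene, had 43.4, 44.2 and 42.6 CPM against 25.4, 27.3 and 22.5 CPM with Yijin-tang (0.79 ± 0.07). Across 26 NRF2 targets 15 were higher and 2 lower, the median being 0.22. Against vehicle libraries of another set, the list medians were 0.515 for Soshiho-tang and 0.273 for Yijin-tang. NQO1, a defining member, was not called (0.05). The lower members were AKR1B10 (-0.34) and the pentose phosphate enzyme TKT (-0.15), and without replicate 3 of Soshiho-tang 13 were higher and 0 lower.

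In heme and iron handling, 9 of 15 members were higher and 1 was lower; HMOX1, FTH1, FTL and BLVRB, all higher, are counted in the NRF2 list as well. Both ferritin chains, which store iron, were higher, with FTH1 at 2589, 2778 and 2460 CPM against 1393, 1437 and 1552 CPM with Yijin-tang (0.84 ± 0.08). FTL had 2928, 3087 and 2607 CPM against 1716, 1660 and 1770 CPM with Yijin-tang (0.74 ± 0.08). Ferritin genes have many near-identical pseudogenes, so how RSEM shared their reads makes these values uncertain. ALAS1, the first enzyme of heme synthesis, differed by 0.61 ± 0.05, and NCOA4, which carries ferritin to lysosomes, was the lower member at -0.24.

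Lysosomal genes were higher as well, set against 12.4% higher and 12.7% lower over all genes. Among 25 lysosome and autophagy genes 17 were higher and 1 was lower (median 0.26), and among 16 subunits of the proton-pumping V-ATPase 11 were higher and none lower (median 0.30). GPNMB, a lysosomal membrane glycoprotein, had 30.2, 33.05 and 27.7 CPM with Soshiho-tang against 7.65, 6.37 and 9.61 CPM with Yijin-tang (1.94 ± 0.12, adjusted p = 1.3e-11). ATP6V0D2, an alternative V-ATPase subunit, was scarce, at 2.49, 2.16 and 2.10 CPM against 0.467, 0.309 and 0.356 CPM with Yijin-tang (2.54 ± 0.31). ATP6V1B2, a subunit of the catalytic head, was abundant, at 131, 131 and 139 CPM against 81.9, 83.1 and 74.8 CPM with Yijin-tang (0.74 ± 0.05). RRAGD, a GTPase outside the list that links lysosomal amino acids to mTORC1, had 1.84, 1.93 and 1.69 CPM against 0.555, 0.386 and 0.249 CPM with Yijin-tang (2.16 ± 0.28). Smaller calls were spread over hydrolases and membrane proteins, such as NEU1 (0.57), the calcium channel MCOLN1 (0.55), CTSD (0.55) and NPC1 (0.38). GABARAPL1, an autophagosome protein, was the lower member at -0.22.

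RND3 and THBD were named for their rank, and PLIN2 and FBXO32 as members of the lipid droplet and FOXO lists. RND3 (2:150468195-150539011), an atypical small GTPase that loosens actin stress fibres, had 319, 353 and 320.2 CPM with Soshiho-tang against 69.8, 69.0 and 69.5 CPM with Yijin-tang (2.25 ± 0.05, adjusted p = 5.3e-21). THBD, the anticoagulant receptor thrombomodulin, had 33.8, 33.9 and 34.2 CPM against 7.03, 8.34 and 8.40 CPM with Yijin-tang (2.10 ± 0.09). PLIN2, a coat protein of lipid droplets, had 232, 237 and 209 CPM against 72.6, 73.6 and 66.5 CPM with Yijin-tang (1.67 ± 0.06). FBXO32, the atrophy-linked ubiquitin ligase atrogin-1, had 158, 167 and 160.3 CPM against 55.3, 50.5 and 54.4 CPM with Yijin-tang (1.60 ± 0.05). Groups were far apart in all 4, and replicate libraries lay close together. For RND3 and THBD, the lack of overlap was a condition of being named by rank.

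Scarcer genes with large differences were KRT75, KCP, TM4SF19, NRROS and PSG7. KRT75, a hair follicle keratin, had 1.65, 1.55 and 1.76 CPM with Soshiho-tang against 0.0876, 0.116 and 0.214 CPM with Yijin-tang (3.56 ± 0.32). KCP, a secreted modulator of BMP signalling, had 3.81, 5.78 and 4.30 CPM against 0.467, 0.579 and 0.356 CPM with Yijin-tang (3.30 ± 0.28). TM4SF19 was at 9.76, 10.6 and 10.1 CPM against 1.37, 2.08 and 1.35 CPM with Yijin-tang, and a read-through transcript shares its exons. PSG7 (2.81 ± 0.33) belongs to a family of near-identical genes, and its value is uncertain for that reason. Lipid droplet and PPAR target genes gave 4 higher and 1 lower of 10, with ANGPTL4 at 1.09 ± 0.10 and PLIN4 at 1.10 ± 0.24 beside PLIN2.

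**Figure D3:**
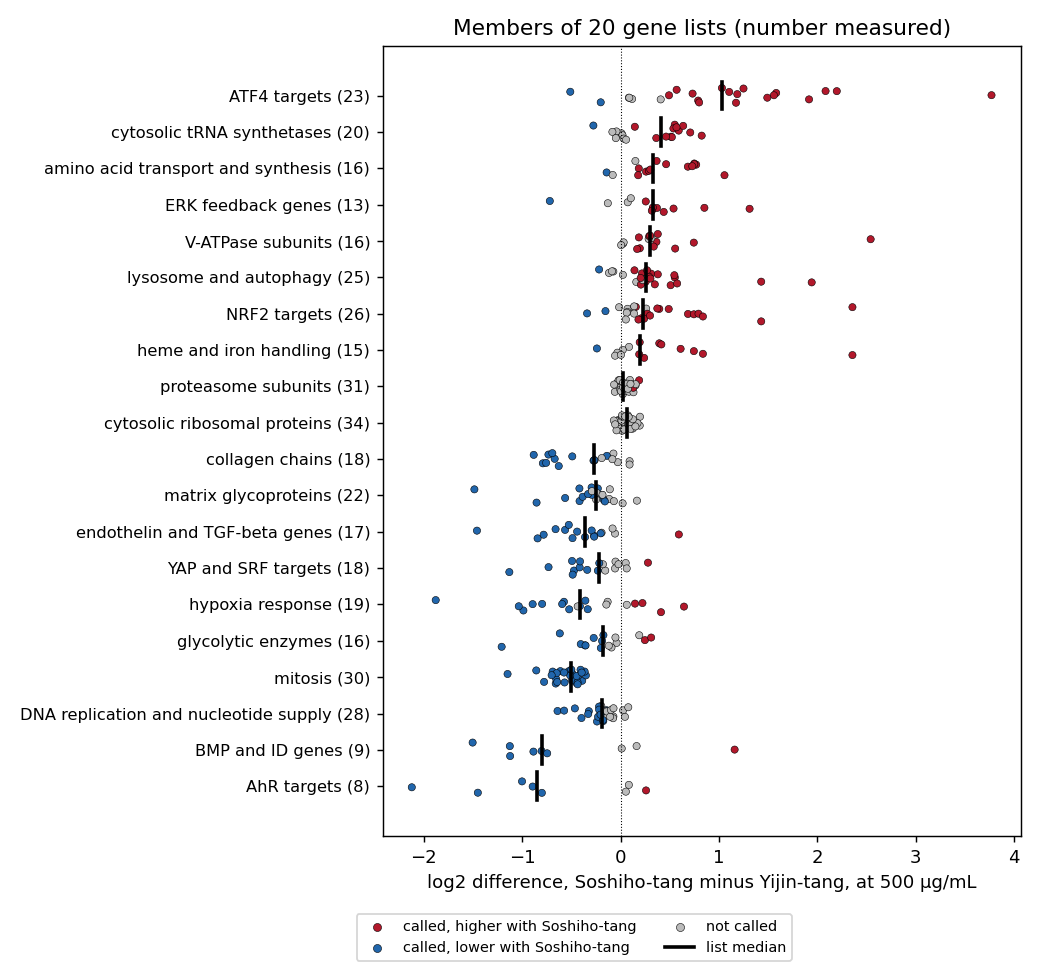
Log2 difference between the extracts at 500 µg/mL (horizontal axis) for each measured member of 20 gene lists (number measured in brackets), with a black bar at the list median. Red and blue points were called higher and lower with Soshiho-tang, grey points were not called; all 30 mitosis genes lie left of 0.

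Mitotic genes were lower with Soshiho-tang without exception: all 30 members of the list were called lower, with a median of -0.50 and a range from -1.15 to -0.35. They were called lower in every alternative fit run as well. KIF20A, a kinesin of cell separation, had 73.1, 72.1 and 73.4 CPM with Soshiho-tang against 148, 156 and 181 CPM with Yijin-tang (-1.15 ± 0.06, adjusted p = 1.2e-12). CCNA2, the cyclin of S phase and G2, had 66.0, 59.9 and 64.2 CPM against 114, 111 and 119 CPM with Yijin-tang (-0.86 ± 0.05). MKI67, the proliferation marker Ki-67, had 204, 173 and 182 CPM against 284, 277 and 398 CPM with Yijin-tang (-0.78 ± 0.15). PLK1, a kinase of mitotic entry, had 106, 99.0 and 94.9 CPM against 148, 158 and 182 CPM with Yijin-tang (-0.70 ± 0.08). Replicate 3 of Yijin-tang, the library with the high mitochondrial share, was the highest for all 4 of these genes; without it all 30 genes stayed called and the median was -0.52. Both extracts lay on their own side of vehicle, with list medians of -0.27 for Soshiho-tang and 0.22 for Yijin-tang against vehicle libraries of another set.

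Genes of DNA replication and nucleotide supply were less shifted, with 14 of 28 lower, none higher and a median of -0.19. RRM2, the small subunit of ribonucleotide reductase, had 161, 155 and 162 CPM with Soshiho-tang against 242, 254 and 249.5 CPM with Yijin-tang (-0.64 ± 0.04). TYMS and TK1, which supply thymidine nucleotides, differed by -0.46 ± 0.06 and -0.40 ± 0.06, while the helicase subunits were mixed. MCM3 (-0.18) and MCM4 (-0.14) were lower, MCM7 stood at -0.11 without a call, and MCM2, MCM5 and MCM6 lay between 0.03 and 0.08 without a call. Of 18 p53 targets 6 were higher and none lower, among them GADD45A, a growth arrest gene, with 98.0, 110.1 and 100.1 CPM against 58.5, 57.5 and 58.4 CPM with Yijin-tang (0.82 ± 0.07). The cell cycle inhibitor CDKN1A (0.19) and the p53 regulator MDM2 (0.02) were not called.

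Promoters of mitotic genes are known for pairing CCAAT boxes with a cell cycle homology region, here searched as TTTGAA. Of 25 windows on the list, 20 held CCAAT (80.0%) and 17 held TTTGAA (68.0%), on either strand. The same shares over windows of all tested genes were 36.5% and 9.98%. Shares in other lists varied: CCAAT was in 5 of 6 windows of the list with TXNIP (83.3%) and in 5 of 16 lysosome windows (31.2%). Other motifs were searched as well. The antioxidant element TGACNNNGC was in 5 of 19 NRF2 windows (26.3%), 6 of 21 ATF4 windows (28.6%) and 15.1% of windows of tested genes. Both motifs stood together in 15 windows (60.0%), against 4.14% of the windows of tested genes. Shown are the windows with both motifs for the 2 members that differed most among them, MKI67 (chr10:128126374-128126673, minus strand) and PLK1 (chr16:23678639-23678938, plus strand), with both motifs in capitals on whichever strand they match. In MKI67 a TTTGAA at -29 overlaps a CCAAT box at -24, and further matches begin at -98 (CCAAT) and -47 (TTTGAA). PLK1 holds CCAAT at -73 and TTTGAA at -29.
MKI67: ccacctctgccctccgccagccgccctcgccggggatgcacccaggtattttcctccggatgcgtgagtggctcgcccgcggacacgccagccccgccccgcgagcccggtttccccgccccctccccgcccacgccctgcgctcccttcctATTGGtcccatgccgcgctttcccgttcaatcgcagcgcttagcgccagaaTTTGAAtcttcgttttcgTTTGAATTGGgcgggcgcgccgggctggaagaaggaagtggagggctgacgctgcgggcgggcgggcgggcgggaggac
PLK1: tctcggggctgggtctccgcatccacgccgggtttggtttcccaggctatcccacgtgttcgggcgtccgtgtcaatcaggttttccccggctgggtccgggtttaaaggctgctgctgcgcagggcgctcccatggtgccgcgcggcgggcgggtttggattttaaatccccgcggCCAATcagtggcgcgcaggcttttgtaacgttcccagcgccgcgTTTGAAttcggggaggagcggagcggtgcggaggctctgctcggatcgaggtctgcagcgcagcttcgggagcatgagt

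Matrix genes formed another broad group lower with Soshiho-tang, set against 12.7% lower over all genes. Of 18 collagen chains 11 were lower and none higher (median -0.27). Against vehicle libraries of another set, the list medians were -0.456 for Soshiho-tang and -0.236 for Yijin-tang. The transcripts on the fibroblast and pericyte list had a lower sum too, with 4 of 9 measured called lower and 1, FAP, higher (0.35). Their part was not tested. COL1A1 (17:50183289-50201632), a chain of type I collagen, had 1777, 1550 and 1626 CPM with Soshiho-tang against 2809, 2770 and 2981 CPM with Yijin-tang (-0.79 ± 0.06, adjusted p = 1.3e-10). COL8A1 had 90.1, 81.8 and 90.2 CPM against 164, 155 and 163 CPM with Yijin-tang (-0.88 ± 0.05). The fibrillar chains COL1A2, COL3A1, COL5A1, COL5A2 and COL11A1 lay between -0.76 and -0.63, whereas the type VI chains COL6A1, COL6A2 and COL6A3 lay between -0.08 and 0.09 and were not called. Among 16 enzymes and chaperones that hydroxylate, fold or crosslink collagen, 9 were lower and none higher. P4HA1, a prolyl hydroxylase, had 124, 118 and 119 CPM against 210.1, 205 and 211 CPM with Yijin-tang (-0.80 ± 0.04), and PLOD2, a lysyl hydroxylase, differed by -0.67 ± 0.05.

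THBS1 (15:39581079-39599466), thrombospondin 1, which binds cells and activates latent TGF-β, differed most among the matrix glycoproteins. It had 577, 523 and 630.1 CPM with Soshiho-tang against 1683, 1646 and 1513 CPM with Yijin-tang (-1.49 ± 0.07, adjusted p = 1.8e-14). Of the 22 glycoproteins, 13 were lower and none higher (median -0.25). Leaving out single libraries gave between 9 and 13. Against vehicle libraries of another set, the list medians were -0.486 for Soshiho-tang and -0.205 for Yijin-tang. Matrix proteases and their inhibitors split evenly, 5 higher and 5 lower of 16, or 3 and 4 without replicate 3 of Soshiho-tang. The stromelysin MMP3 (0.68 ± 0.08) and the membrane protease MMP14 (0.40 ± 0.04) were higher, and the gelatinase MMP2 was lower (-0.32 ± 0.06). Integrin subunits gave 4 higher and 1 lower of 12, led by ITGB3 at 1.29 ± 0.08. Over all genes 12.4% were higher and 12.7% lower.

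Genes of the endothelin, TGF-β and BMP pathways were mostly lower too, and a link to the matrix genes was not tested. In the endothelin and TGF-β list 13 of 17 genes were lower and 1 was higher (median -0.36), beside 12.7% and 12.4% of all genes. EDN1, the vasoactive peptide endothelin 1, had 0.646, 0.811 and 0.882 CPM with Soshiho-tang against 2.13, 2.08 and 2.21 CPM with Yijin-tang (-1.46 ± 0.19). The ligand genes TGFB3, TGFB2 and TGFB1 differed by -0.84, -0.78 and -0.49, the feedback inhibitor SMAD7 by -0.29, and the endothelin receptor EDNRA was the higher member at 0.59. Of 9 BMP and ID genes 6 were lower and 1 higher (median -0.80). ID3, an inhibitor of basic helix-loop-helix factors and a direct BMP target, had 136, 115 and 122 CPM against 266, 284 and 264 CPM with Yijin-tang (-1.12 ± 0.10, adjusted p = 1.7e-08). ID1, ID2 and ID4 were lower too, by -0.80, -1.12 and -1.50. The ligand genes were split. BMP4 was lower, with means of 3.78 CPM with Soshiho-tang against 7.03 CPM with Yijin-tang (-0.89 ± 0.10). BMP2 was higher at 1.71, 1.52 and 1.32 CPM against 0.730, 0.772 and 0.534 CPM with Yijin-tang, and BMP6 was not called.

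Contractile genes included the single lowest gene named by rank. ACTC1 (15:34788095-34795726), cardiac α-actin, had 0.291, 0.372 and 0.184 CPM with Soshiho-tang against 3.27, 3.82 and 3.60 CPM with Yijin-tang (-3.62 ± 0.23, adjusted p = 8.8e-12). MYOCD, a coactivator of serum response factor, had 0.291, 0.406 and 0.478 CPM against 1.64, 1.66 and 1.78 CPM with Yijin-tang (-2.11 ± 0.24). In the list of YAP and SRF targets 10 of 18 were lower and 1 was higher (median -0.22), with LMOD1 at -1.13, CNN1 at -0.73, CCN1 at -0.49 and ACTA2 at -0.47. ANKRD1, a YAP target, was the higher member at 0.28, and tropomyosin TPM1, vinculin and filamin A lay between -0.05 and 0.06 without a call.

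Hypoxia genes were split, 11 of 19 lower and 4 higher with Soshiho-tang (median -0.41), beside 12.7% and 12.4% of all genes. EGLN3, an oxygen-sensing prolyl hydroxylase, had 1.42, 1.76 and 1.18 CPM with Soshiho-tang against 5.87, 6.02 and 4.20 CPM with Yijin-tang (-1.88 ± 0.15). The non-coding host of the hypoxia-induced microRNA miR-210, MIR210HG, had 0.388, 0.541 and 0.515 CPM against 4.50, 4.48 and 3.49 CPM with Yijin-tang (-3.11 ± 0.18, adjusted p = 1.3e-12). The glucose transporter SLC2A1 had 91.2, 91.5 and 94.5 CPM against 192, 190.2 and 167 CPM with Yijin-tang (-0.99 ± 0.05). Its relative SLC2A3 went the other way, with 54.3, 52.7 and 54.8 CPM against 37.0, 35.0 and 31.4 CPM with Yijin-tang (0.64 ± 0.06), as did ADM (0.41), CA12 (0.22) and VEGFA (0.15). Of 16 glycolytic enzymes 9 were lower and 2 higher. LDHA, lactate dehydrogenase A, had 1120, 1088 and 1166 CPM against 1712, 1680 and 1784 CPM with Yijin-tang (-0.62 ± 0.05), and HK1 and PFKM were the higher enzymes at 0.31 and 0.25.

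In TXNIP and ARRDC4 both extracts at 500 µg/mL lay above their means at 20 µg/mL, Yijin-tang further than Soshiho-tang. In IL11 the means of the extracts moved in opposite directions. TXNIP (1:145992435-145996600), a thioredoxin-binding arrestin that restrains glucose uptake and answers glucose through MondoA, had 14.5, 14.7 and 15.4 CPM with Soshiho-tang against 50.1, 49.9 and 53.3 CPM with Yijin-tang (-1.78 ± 0.08, adjusted p = 8.2e-15). At 20 µg/mL it averaged 9.80 CPM with Soshiho-tang, against 9.54 CPM with Yijin-tang, and 10.3 CPM in vehicle. ARRDC4, its closest relative, had 8.53, 9.53 and 8.42 CPM at 500 µg/mL against 15.4, 15.7 and 16.2 CPM with Yijin-tang (-0.83 ± 0.09), and 6.90 CPM with each extract at 20 µg/mL. ARRDC3, another α-arrestin, differed by -0.58 ± 0.06, with the Yijin-tang mean near its level at 20 µg/mL. ARRDC1, ARRDC2 and MLXIP, the gene of MondoA, were not called. IL11, a cytokine of the IL6 family, had 39.6, 42.5 and 53.5 CPM with Soshiho-tang against 146, 138 and 125 CPM with Yijin-tang (-1.60 ± 0.09). Its means at 20, 100 and 500 µg/mL were 64.5, 59.8 and 45.2 CPM with Soshiho-tang, against 76.0, 105 and 137 CPM with Yijin-tang. The gap between the extracts in IL11 was already called at 100 µg/mL (-0.81 ± 0.09, adjusted p = 1.7e-05) and not at 20 µg/mL (-0.23 ± 0.09).

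Cytokine genes had no common direction. Counts in this paragraph stand beside 12.4% higher and 12.7% lower over all genes. LIF, another member of the IL6 family, was higher with Soshiho-tang at 50.01, 59.1 and 62.1 CPM against 17.7, 21.1 and 22.6 CPM with Yijin-tang (1.48 ± 0.08), so LIF and IL11 differed in opposite directions. The IL6 family list gave 2 higher and 6 lower of 11, with IL6 at -0.42, SOCS3 at -0.46 and BCL3 at -1.16. Among 9 chemokines 2 were higher (CXCL2 at 1.03, CXCL8 at 0.74) and 2 lower. CCL2, a monocyte attractant, had 3.81, 3.75 and 3.68 CPM with Soshiho-tang against 9.28, 8.61 and 12.5 CPM with Yijin-tang (-1.43 ± 0.14), and CXCL12, a ligand of CXCR4, had 5.43, 6.08 and 5.52 CPM against 13.9, 12.9 and 13.0 CPM with Yijin-tang (-1.23 ± 0.08). Of 16 NF-κB targets and inflammatory genes 8 were higher and 3 lower. The adhesion molecule ICAM1 (1.01 ± 0.06) and the pattern recognition protein PTX3 (1.26 ± 0.11) were higher, while PTGS2, the inducible cyclooxygenase, was lower at 51.9, 47.5 and 54.7 CPM against 78.1, 80.6 and 81.6 CPM with Yijin-tang. Feedback genes of the ERK pathway were mostly higher, 9 of 13 with 1 lower and a median of 0.33. The phosphatase DUSP5 led at 25.8, 29.1 and 25.9 CPM against 11.8, 10.4 and 10.3 CPM with Yijin-tang (1.31 ± 0.08), and the lower one was the receptor EPHA2 (-0.72 ± 0.04).

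Several AhR targets were lower with Soshiho-tang at every concentration. Of 8 measured members 4 were called lower at 20, 6 at 100 and 5 at 500 µg/mL, though not the same genes each time. Over all genes 0.136%, 0.765% and 25.1% were called at these concentrations, in either direction. CYP1B1, TIPARP and AHRR were called at both 20 and 500 µg/mL. STC2 was called lower at 20 µg/mL (-0.31) and not called at 500 µg/mL (0.08). CYP1B1 (2:38066973-38109902), which oxidises polycyclic hydrocarbons and steroids, had 53.02, 52.6 and 58.1 CPM with Soshiho-tang at 500 µg/mL against 145, 151 and 151 CPM with Yijin-tang (-1.45 ± 0.05, adjusted p = 6.6e-16). At 20, 100 and 500 µg/mL its log2 difference was -0.65, -0.93 and -1.45, each called. CYP1A1, the classical target, was scarce, with 0.517, 0.237 and 0.331 CPM at 500 µg/mL against 1.78, 1.43 and 1.57 CPM with Yijin-tang (-2.12 ± 0.27). TIPARP, a mono-ADP-ribosylase that feeds back on the receptor, had 33.3, 31.8 and 36.7 CPM against 59.9, 64.1 and 65.0 CPM with Yijin-tang (-0.89 ± 0.05). The repressor AHRR had 18.8, 18.7 and 20.6 CPM against 34.4, 33.9 and 32.5 CPM with Yijin-tang (-0.80 ± 0.07). With the aldehyde dehydrogenase gene ALDH3A1 called lower too (adjusted p = 0.0061), 5 of 8 measured AhR targets were lower at 500 µg/mL, 1 was higher and the median was -0.85. The higher one, the amino acid carrier SLC7A5, is also an ATF4 target, and NQO1 and STC2 were not called. KLF9, a Krüppel-like factor that answers glucocorticoids, showed a like course, with log2 differences of -0.41, -0.65 and -0.94 at 20, 100 and 500 µg/mL. In the glucocorticoid list 5 of 10 genes were lower and none higher at 500 µg/mL, with CEBPD at -1.08, PER1 at -0.55 and FKBP5, a defining target, at 0.10 without a call.

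**Figure D4:**
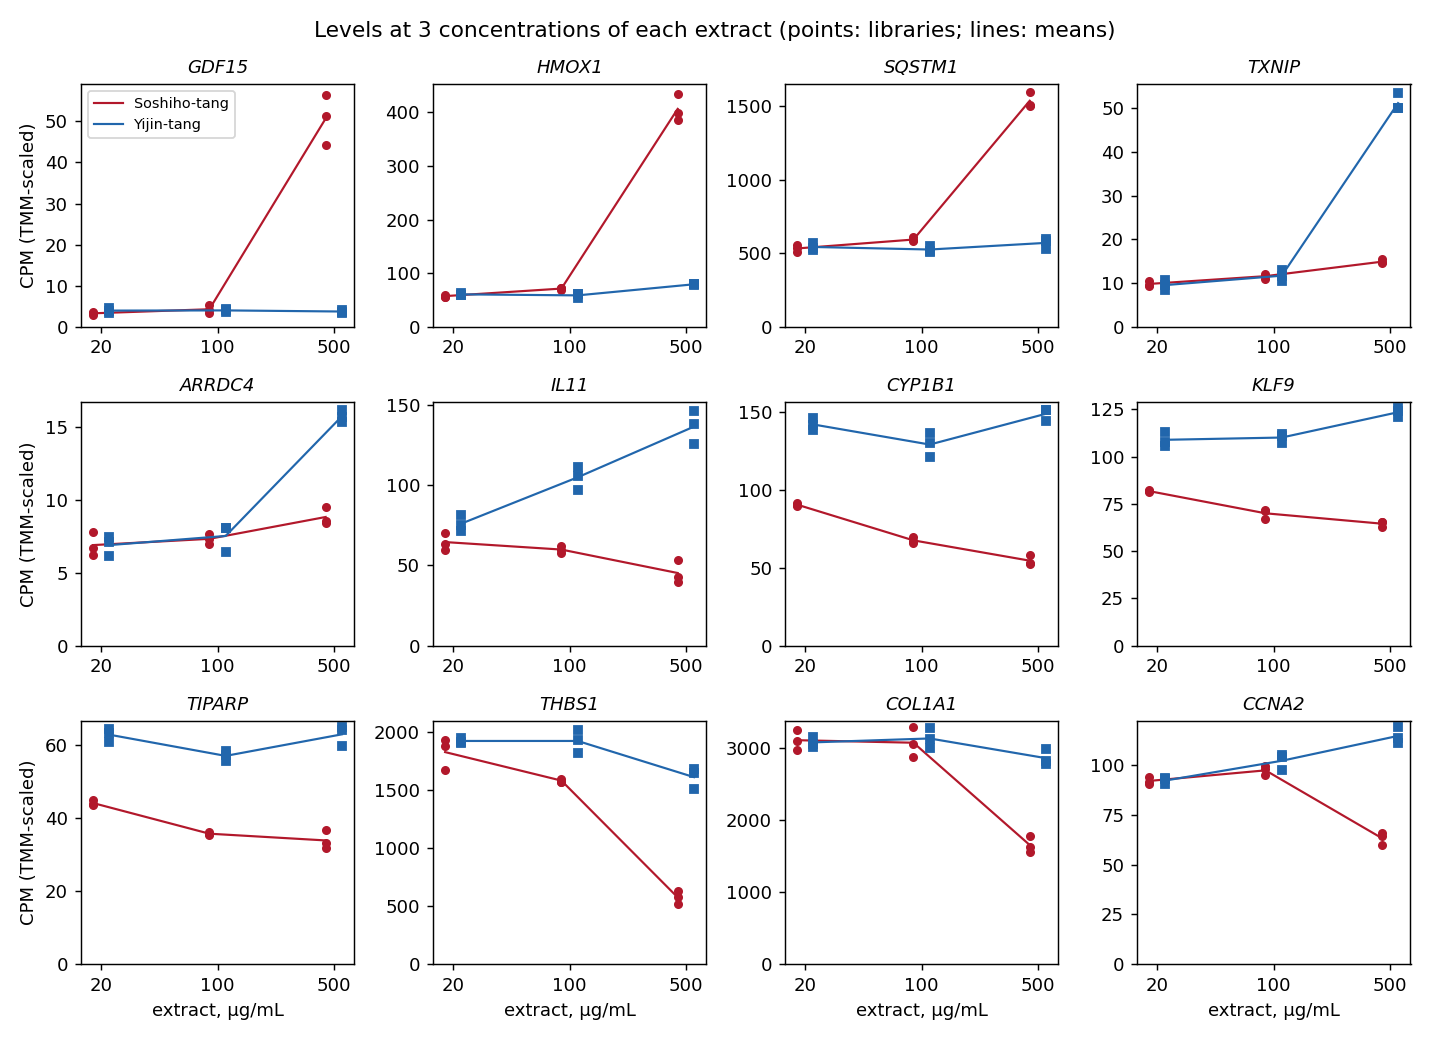
Level of 12 genes (CPM, vertical axis from 0) at 20, 100 and 500 µg/mL of Soshiho-tang (red circles) and Yijin-tang (blue squares), with a point per library and lines through the means. GDF15, HMOX1 and SQSTM1 part at 500 µg/mL through Soshiho-tang, and TXNIP and ARRDC4 mostly through Yijin-tang. CYP1B1, KLF9 and TIPARP are apart at all 3 concentrations.

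Few genes told the extracts apart at lower concentrations. At 100 µg/mL 129 genes were called (0.765%) and at 20 µg/mL 23 genes (0.136%). Of the 23, 19 were lower and 4 higher with Soshiho-tang, and 17 were called in the same direction at 500 µg/mL. The AhR list held 4 of the 23, namely CYP1B1, AHRR, TIPARP and STC2. FTL was the gene called in opposite directions: at 20 µg/mL it was lower with Soshiho-tang (means of 1168 CPM, against 1538 CPM with Yijin-tang) and at 500 µg/mL it was higher. The test of the difference itself, the gap at 500 minus the gap at 20 µg/mL, called 2266 genes (13.4%). The gap was more positive at 500 µg/mL in 1100 (6.52%) and more negative in 1166 (6.91%), and 2140 of the 2266 were called at 500 µg/mL too. By list, 19 of 23 ATF4 targets, 15 of 26 NRF2 targets, 17 of 25 lysosome genes and 10 of 16 V-ATPase subunits had a more positive gap. A more negative one was found in 28 of 30 mitosis genes, 9 of 18 collagen chains and 11 of 17 endothelin and TGF-β genes. In the AhR list 4 of 8 genes had a more negative and 3 a more positive gap at 500 µg/mL.

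**Figure D5:**
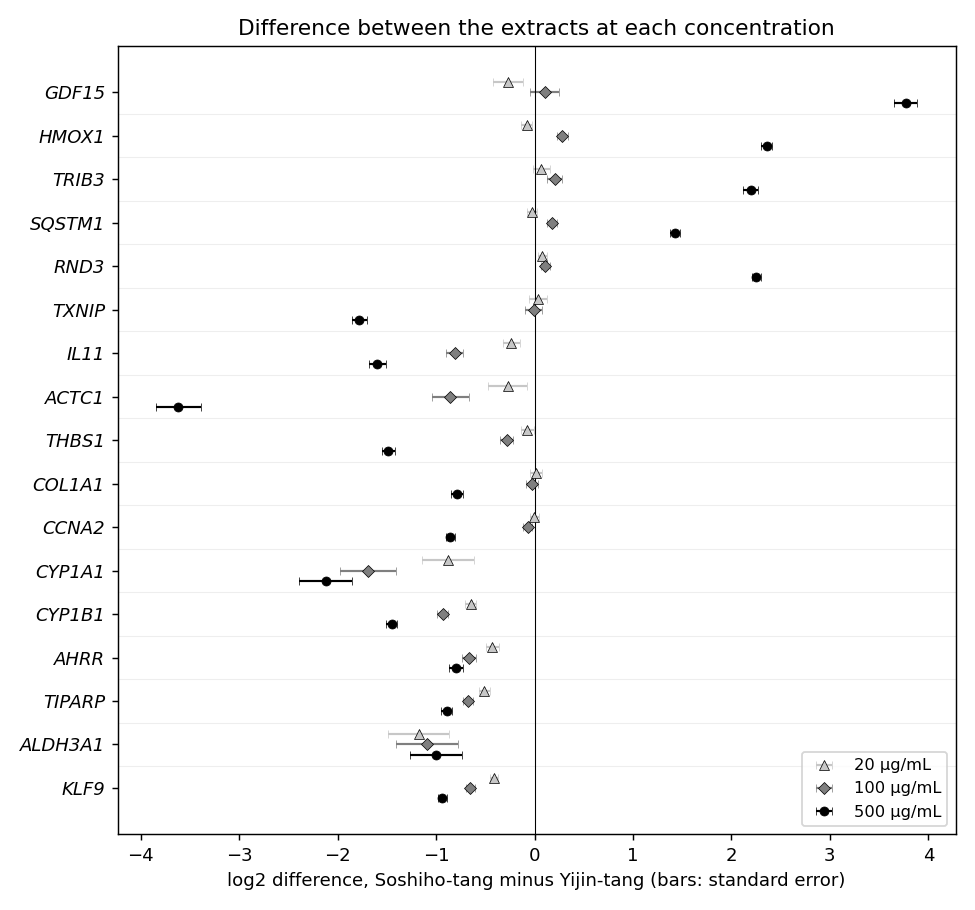
Log2 difference between the extracts (horizontal axis, bars for 1 standard error) at 20, 100 and 500 µg/mL for 17 genes. From GDF15 down to CCNA2 the points for 20 µg/mL lie near 0 and those for 500 µg/mL far from it; from CYP1A1 down to KLF9 all 3 points lie left of 0.

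Other genes ranked lowest with Soshiho-tang have varied roles. RASL11A, a small Ras-like protein, had 3.43, 3.08 and 2.79 CPM with Soshiho-tang against 14.4, 13.9 and 12.1 CPM with Yijin-tang (-2.12 ± 0.09, adjusted p = 3.6e-15). PRDM1, the transcriptional repressor BLIMP1, had 6.21, 5.54 and 5.70 CPM against 21.2, 21.5 and 24.5 CPM with Yijin-tang (-1.94 ± 0.09). VAV3, a guanine nucleotide exchange factor, had 2.97, 2.40 and 2.24 CPM against 9.14, 8.80 and 10.0 CPM with Yijin-tang (-1.87 ± 0.10). The surface glycoprotein CD24, named for its abundance and not among the 12 lowest, was at 224, 210.5 and 220.5 CPM against 455, 472 and 478 CPM with Yijin-tang (-1.10 ± 0.04). KLF17 (-1.81), DMBT1 (-2.03), DUSP2 (-2.10) and TCAF2 (-1.85) were also lower, and TCAF2 has a near-identical neighbour. Keratins KRT18 and KRT80 differed by -1.01 and -1.02, in a list with 5 lower and 2 higher of 9.

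Ribosomal, proteasome and respiratory chain genes held few calls, beside 25.1% of all genes. No cytosolic ribosomal protein gene was called among 34 (median 0.06), or 3 higher with no filter on low counts. Of the proteasome subunits 2 of 31 were higher, and neither kept its call without replicate 2 of Soshiho-tang or without replicate 3 of Yijin-tang. None of 13 mitochondrially encoded transcripts was called (median -0.27, and 0.04 without replicate 3 of Yijin-tang), though 10 were lower with no filter on low counts. Of the nuclear respiratory chain genes 1 of 25 was lower. The lists that follow held larger shares. Ribosome biogenesis gave 6 higher and none lower of 16, at most 0.31. Cytosolic heat shock genes gave 1 higher and 6 lower of 17, and 1 higher with 3 lower without replicate 2 or replicate 3 of Soshiho-tang. Interferon-stimulated genes gave 4 higher and 1 lower of 18, with 1 or 2 higher and at most 1 lower without replicate 1 or 3 of Soshiho-tang or replicate 1 of Yijin-tang. Immediate early genes gave 5 higher and 1 lower of 17, with KLF4 at 0.92 and JUN at 0.60.

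Lipid and other metabolic lists were mixed. Several of their counts lay near the shares over all genes, 12.4% higher and 12.7% lower. In cholesterol synthesis and uptake 7 of 25 genes were lower and 3 higher. Fatty acid synthesis gave 2 lower of 11 and LXR targets 3 lower and 1 higher of 8, the higher one being the cholesterol exporter ABCA1 (0.65 ± 0.07). FOXO and insulin feedback genes gave 2 of each among 11 (4 lower without replicate 3 of Yijin-tang), FBXO32 and the insulin receptor substrate IRS2 (0.89 ± 0.08) being higher. Clock genes gave 5 lower and 2 higher of 15, and Wnt genes 4 lower and 3 higher of 9, with 2 lower without replicate 2 of either extract or replicate 3 of Yijin-tang. Tubulins gave 3 lower and 1 higher of 13, with 1 lower without replicate 2 of Soshiho-tang, and metallothioneins with the zinc exporter gave 1 higher of 5, against 3 of 4 in the fit of 6 libraries and 3 of 8 with no filter on low counts. The cell type marker lists were short, and their calls are read against 12.4% higher and 12.7% lower over all genes: 2 lower and 1 higher of 7 glial, 2 of each among 6 neuronal, 4 lower and 1 higher of 9 fibroblast and pericyte, 1 higher of 3 endothelial and 1 lower of 3 leukocyte genes.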

How the data were processed

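Per the submitters' processing notes, the authors used FastQC 0.11.9, Trim Galore 0.6.5, STAR 2.7.3a and RSEM 1.3.3 with the human build hg38/GRCh38. Which gene annotation was used, and whether counting took strand into account, is not given in the sources used here. The authors deposited RSEM expected counts per gene, of which 9.5% to 10.1% were not whole in the 6 libraries. They were rounded to whole numbers. Identifiers were named from GENCODE 29 (57055 of 60675 matched, 41361 with a symbol). The deposited table also has 30 blank columns.

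Genes were kept by filterByExpr (minimum count 10, minimum total 15), scaled by TMM and fitted with edgeR 4.0.16 (limma 3.58.1, R 4.3.3) by robust quasi-likelihood, with a mean for each group over 21 libraries: both extracts at 20, 100 and 500 µg/mL and vehicle. All 16872 tested genes (15254 with a symbol) shared the Benjamini-Hochberg adjustment, called under 0.05. Standard errors are the log2 difference divided by the square root of the F statistic. The procedure was tested on simulated data. DESeq2 1.42.0, other scaling, filters and sample sets, a replicate block and leaving out single libraries served as alternatives.

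Of 820 genes in 51 lists, 47 were not tested. Members and lists were chosen with earlier results of these data known. Named by rule were, per side, the 12 called protein-coding genes with the most extreme differences at a mean of at least 1 CPM without overlap, and the 4 most abundant past 2-fold. Up to 4 called members per list were added, with whole lists of at most 6, and per side 5 genes for the difference at 500 minus that at 20. Other list members are named to describe the counts and were chosen after their values were seen. Genes with near-identical copies have uncertain counts. A few list members are not reported here. Sample labels and the design text give different DMSO concentrations for the vehicle.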

Additional observations from a re-analysis of the deposited data

Results flagged for a closer look

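The gap between the extracts was not the same at 500 and at 20 µg/mL. The test of the gap at 500 minus the gap at 20 µg/mL (edgeR's quasi-likelihood test, adjusted p under 0.05) called 2266 genes, and the following are the 5 highest and 5 lowest among those with at least 1 CPM in some group.

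GDF15 had the highest value, 4.04 ± 0.20 on the log2 scale (adjusted p = 5.1e-13), with means of 50.7 CPM with Soshiho-tang against 3.73 CPM with Yijin-tang at 500 µg/mL, and 3.29 CPM with Soshiho-tang against 3.96 CPM with Yijin-tang at 20 µg/mL. KRT75 followed at 3.71 ± 0.54, KCP at 2.91 ± 0.48 and ATP6V0D2 at 2.87 ± 0.52, all 3 near or under 0.6 CPM in the other 3 groups and highest with Soshiho-tang at 500 µg/mL. SULT1A4, a sulfotransferase with a near-identical copy, was called at 3.13 ± 0.96 (adjusted p = 0.030), with its gap at 20 µg/mL. It averaged 0.136 CPM with Soshiho-tang against 1.37 CPM with Yijin-tang at 20 µg/mL, and 0.0951 CPM with Soshiho-tang against 0.103 CPM with Yijin-tang at 500 µg/mL. It lost the call in 4 of 18 alternatives, each leaving out a library: replicate 3 of Soshiho-tang or replicate 1 of Yijin-tang at 500 µg/mL, or replicate 1 of either at 20 µg/mL.

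ACTC1 had the lowest value, -3.35 ± 0.31. It averaged 0.282 CPM with Soshiho-tang against 3.56 CPM with Yijin-tang at 500 µg/mL, and 1.26 CPM with Soshiho-tang against 1.53 CPM with Yijin-tang at 20 µg/mL, so the means at 500 µg/mL lay on either side of those at 20 µg/mL. RASL11A (-1.91 ± 0.12) had the same pattern, with 3.10 CPM with Soshiho-tang against 13.5 CPM with Yijin-tang at 500 µg/mL, and 8.33 CPM with Soshiho-tang against 9.58 CPM with Yijin-tang at 20 µg/mL. MIR210HG was at -2.91 ± 0.22, GPR183, a receptor for oxysterols, at -2.07 ± 0.40, and DUSP2, a phosphatase of MAP kinases, at -1.94 ± 0.42. GPR183 averaged 0.214 CPM with Soshiho-tang against 0.932 CPM with Yijin-tang at 500 µg/mL, and 1.00 CPM with Soshiho-tang against 1.01 CPM with Yijin-tang at 20 µg/mL. Apart from SULT1A4, these genes stayed called in all 18 or 19 alternatives run for each.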

How the results depend on the processing

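The count of 4239 called genes lay between 3749 and 4272 under other scaling, tools, filters and sample sets, and between 3385 and 3930 when a library at 500 µg/mL was left out. The count past 2-fold lay between 316 and 540, and that of the gap at 500 minus the gap at 20 µg/mL between 1832 and 2283. The difference in mitochondrial share turned to 0.332 percentage points without replicate 3 of Yijin-tang, and the range over the 6 libraries left out was -1.62 to 0.332. No named gene changed direction where it was called in the main or the alternative fit. Changes of sign in genes called in neither were not counted. Among named genes 16 lost their call in at least 1 alternative, all with a log2 difference of at most 0.56 in size, and MT1X, MT2A and SLC30A1 gained one. Same-numbered libraries of the extracts at 500 µg/mL had correlations of -0.165, -0.0354 and -0.158, so the numbers were not taken to pair them; with a replicate block 4272 genes were called, 388 past 2-fold, and 2283 in the gap at 500 minus the gap at 20 µg/mL. Genes near 1 CPM rest on few counts, and 3 libraries a group limit all calls to the spread between them.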
